A study of Mus musculus with 60 samples.

Results

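Both mouse cell lines transfected with mutant Pabpn1, D7E and D7F, were compared with both lines transfected with wild-type Pabpn1, WTA and WTD. WTA and D7E are labelled high, and WTD and D7F low, for the level of the transfected gene. The untransfected line is IM2, whose RNA was also the common reference on every array. Each line was grown as 3 cultures, so each genotype is represented by 6 cultures of 2 lines. These 12 cultures account for 48 of the 60 arrays, with 4 arrays per culture: 2 array parts that carry different probes, each hybridised with both dye orientations. The labels name oculopharyngeal muscular dystrophy but state neither the mutation, the promoter of the transgene, the tissue of the lines nor whether a line is 1 clone. A probe belonged to the set described here when the mean of each mutant line differed in the same direction from the mean of each wild-type line, which makes 4 pairings. Of 9703 probes tested, 2644 met this rule, and 14 of those also passed the test between genotypes.

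The product of Pabpn1 coats the growing poly(A) tail of a new RNA in the nucleus, stimulates poly(A) polymerase and helps to set the length of the tail. Oculopharyngeal muscular dystrophy is a late-onset disease of eyelid, throat and limb muscles in which a longer alanine tract in PABPN1 leads to aggregates in muscle nuclei. Skeletal muscle cells divide as myoblasts, leave the cell cycle and fuse into myotubes that build sarcomeres, the contractile units of actin and myosin filaments.

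Each value below is a log2 ratio of culture RNA over the IM2 reference, which holds if the deposited log ratios have base 10. A ratio gives a difference from IM2, not a level, so the presence of muscle markers in these cells could not be read from it. Across probes, cultures of the same line correlated with r = 0.416 to 0.645 in the 4 transfected lines, where probes are not independent replicates. Their part I arrays had values in 81.6% to 99.9% of rows and their part II arrays in 49.9% to 99.4%. The share of these values at the limit of the scale was up to 21.6%, highest on an array of WTA culture 1. The IM2 arrays, which also enter the fit and the probe filter, went beyond these ranges. Their share at the limit reached 35.8% (culture 2, Cy3, part II) and 31.0% (culture 1, Cy5, part I). The IM2 culture 3 Cy5 array of part II had values in 41.3% of rows. With 2 lines and 6 cultures for each genotype, the small number of lines and cultures limits the precision. The labels do not say whether the cultures of a line were independent, so p-values measure only the spread between these cultures.

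The differences shared by both mutant lines were few. Higher in the mutant lines were Gpx7, a peroxidase of the endoplasmic reticulum, Msln, Mmp23, Dpep1, Mapk12 and Ramp1, and lower were Myl2, a myosin light chain, Fxyd1, Ube2c, Pola1, Xlr, 3830403N18Rik, Snap25 and Cox8b. The median difference over all probes was 0.00 and its median size 0.12, beside a median SE of 0.15. In limma with Benjamini-Hochberg adjustment, 19 probes (0.196%) passed an adjusted p of 0.05, 10 higher and 9 lower in the mutant lines, and 650 had an unadjusted p under 0.05. Direction alone was shared far more often: 1438 probes (14.8%) were higher and 1206 (12.4%) lower in all 4 pairings. With only 2 lines for each genotype, such an order of the line means is common without any genotype effect. These shares are therefore no evidence of one. Both conditions were met by 14 probes (0.144%), 6 higher and 8 lower. Direction and test use the same line means, so the shared direction of the 14 is a description and no further evidence. The measured mutant and wild-type cultures did not overlap for 56 probes (0.577%), 32 higher and 24 lower, of which 7 passed the test. Of these 56 probes, 33 were measured in all 12 cultures, and a missing value makes such a separation easier to reach. The test treats cultures as the unit. With the line as a random block 3 probes passed, those of Mmp23, Ube2c and Myl2. This block used 1 common correlation between cultures of a line for all probes of a part, 0.038 on part I and 0.032 on part II. It therefore took the cultures of a line as nearly independent, and passing it is not evidence at the level of lines. With the 2 line means of each genotype as the unit 0 passed. In that fit 390 of 12038 probes had an unadjusted p under 0.05, a smaller share than the 0.05 that this threshold lets through without any difference.

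**Figure D1:**
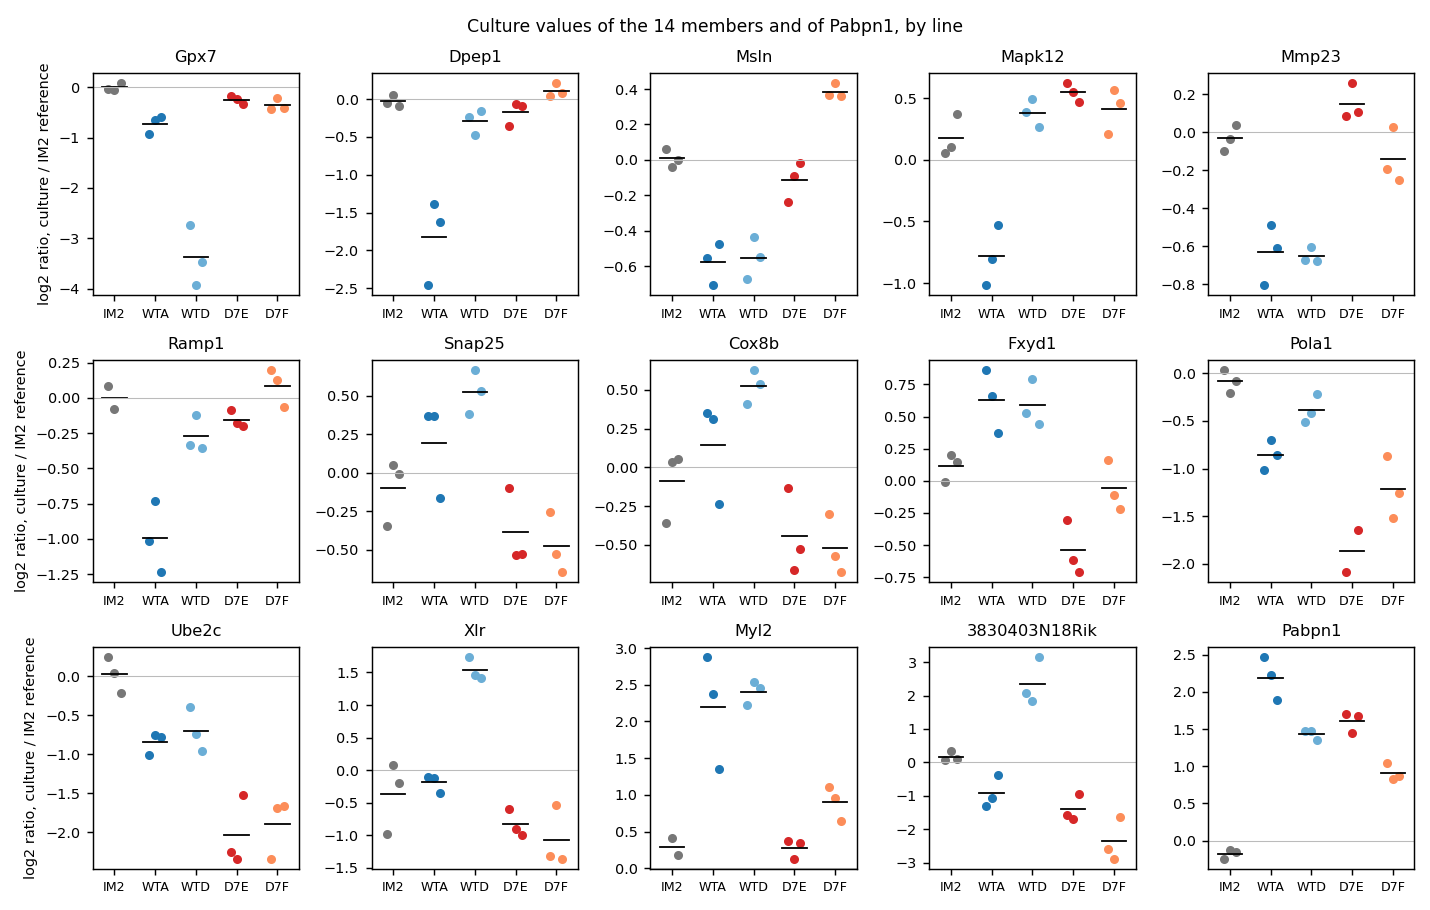
Log2 ratio of culture over IM2 reference (y axis, a scale for each gene) for the 14 genes that passed with 1 direction in all 4 pairings and for Pabpn1, by line (x axis). Points are cultures, 3 per line where measured, and bars are line means; for Myl2 the wild-type cultures lie between 1.35 and 2.88 and the mutant cultures between 0.13 and 1.10.

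Myl2 encodes the regulatory light chain of myosin in slow skeletal muscle and in the heart, and it was the sarcomere gene with the largest difference. Its promoter is shown because the genes that passed can be compared by the E-boxes (CANNTG) in the same window. E-boxes are the motif class bound by muscle regulatory factors such as MyoD. The sequences run 5′ to 3′ on the strand of the gene, from 250 bases before to 50 after the RefSeq start in GRCm38.p6, with E-boxes in capitals.
Myl2, chr5:122092474-122092773, plus strand, the first of 2 entries: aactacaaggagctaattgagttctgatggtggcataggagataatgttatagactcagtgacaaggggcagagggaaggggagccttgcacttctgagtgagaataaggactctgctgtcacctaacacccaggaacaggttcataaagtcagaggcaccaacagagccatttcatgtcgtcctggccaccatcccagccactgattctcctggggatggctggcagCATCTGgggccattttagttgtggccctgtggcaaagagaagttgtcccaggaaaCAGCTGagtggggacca
Xlr, chrX:53797657-53797956, minus strand: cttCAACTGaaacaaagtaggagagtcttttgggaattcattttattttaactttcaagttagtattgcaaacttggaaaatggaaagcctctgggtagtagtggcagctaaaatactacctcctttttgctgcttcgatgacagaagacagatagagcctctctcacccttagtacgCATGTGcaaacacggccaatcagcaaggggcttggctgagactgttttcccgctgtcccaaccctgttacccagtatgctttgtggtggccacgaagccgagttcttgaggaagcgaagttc
Gpx7, chr4:108406664-108406963, minus strand: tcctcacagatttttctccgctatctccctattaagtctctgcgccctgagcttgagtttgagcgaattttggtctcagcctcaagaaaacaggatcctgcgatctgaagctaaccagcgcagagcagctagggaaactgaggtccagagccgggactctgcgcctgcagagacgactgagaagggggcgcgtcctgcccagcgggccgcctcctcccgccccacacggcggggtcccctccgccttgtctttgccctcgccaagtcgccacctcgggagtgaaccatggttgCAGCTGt
Mmp23, chr4:155653335-155653634, minus strand, the first of 2 entries: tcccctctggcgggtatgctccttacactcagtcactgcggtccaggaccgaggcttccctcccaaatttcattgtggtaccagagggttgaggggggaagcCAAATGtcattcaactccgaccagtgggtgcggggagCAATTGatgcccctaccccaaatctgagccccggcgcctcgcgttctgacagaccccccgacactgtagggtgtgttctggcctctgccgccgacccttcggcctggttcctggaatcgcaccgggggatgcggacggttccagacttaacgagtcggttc

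The windows of Myl2, Xlr and Mmp23 held 2 E-boxes each and that of Gpx7 held 1. Over all 32851 RefSeq promoter windows of the same length 72.3% held at least 1 E-box, so that its presence in these windows is usual. The letters TATAAA occurred in none of the 4 windows on either strand, against 13.6% of all windows. Among the 19 genes that passed the test, 17 had an entry in the promoter table.

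Myl2 was high in both wild-type lines. Its log2 ratio was 2.88, 2.38 and 1.35 in the WTA cultures and 2.22, 2.53 and 2.46 in the WTD cultures. In the mutant lines it was 0.37, 0.13 and 0.34 in D7E and 1.10, 0.96 and 0.65 in D7F, and the IM2 cultures with a value had 0.42 and 0.18. Every mutant culture lay below every wild-type culture, and WTA culture 3 was the lowest of the wild-type side. Myl2 fell by 1.71 on the log2 scale (SE 0.21, adjusted p = 0.00431), which is 3.27-fold, and the 4 pairings ran from -2.12 to -1.30. Against IM2, the wild-type mean was 2.01 higher (adjusted p = 0.00130) and the mutant mean 0.30 higher (adjusted p = 0.55). With the values at the limit of the scale kept, the Myl2 difference was again -1.71, at an adjusted p of 0.483. All 12 transfected cultures had a Myl2 value without them, and only IM2 culture 1 had none. What raised the adjusted p was not tested.

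Fxyd1 encodes phospholemman, a small membrane protein that regulates the sodium pump in heart and skeletal muscle. The WTA cultures had log2 ratios of 0.86, 0.66 and 0.37 and the WTD cultures 0.53, 0.79 and 0.44. D7E had -0.30, -0.61 and -0.71, and D7F had 0.16, -0.11 and -0.22. All 6 wild-type cultures were above all 6 mutant cultures, with D7F culture 1 nearest to the wild-type range. Fxyd1 fell by 0.91 (SE 0.11, adjusted p = 0.00547), with IM2 at 0.11 ± 0.11 (SD, n = 3), between both genotypes.

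Cox8b, a subunit of cytochrome c oxidase found in heart and muscle, fell by 0.81 (SE 0.14, adjusted p = 0.0375). The wild-type line means were 0.14 ± 0.33 (SD, n = 3) for WTA and 0.52 ± 0.11 for WTD, and the mutant ones -0.44 ± 0.27 for D7E and -0.52 ± 0.19 for D7F. Snap25, a SNARE protein of vesicle release in neurons, fell by 0.79 (SE 0.13, adjusted p = 0.0375). For both genes WTA culture 3 (-0.23 for Cox8b and -0.17 for Snap25) lay below D7E culture 1 (-0.14 and -0.10), so the groups overlapped at that point. The Snap25 and Cox8b probes had almost the same values: over the 12 cultures their mean absolute difference was 0.04 and their r was 0.997. They lie 2 rows apart, at rows 31 and 29, in the 684-row unit in which the rows of part I repeat. Kat6b, Ugt8a, Man1a and Aadat, which lie at rows 29 to 32 of that unit, followed Snap25 with r = 0.965 to 0.985. Snap25 and Cox8b are therefore not counted as independent observations. Among the 19 probes that passed, they were the 2 with such a near copy (r of at least 0.95 and a mean absolute difference of at most 0.15), and the part of the row position in the result was not tested.

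A pair of genes of cell division was lower. Ube2c is the ubiquitin-conjugating enzyme that works with the anaphase-promoting complex at the end of mitosis, and Pola1 is the catalytic subunit of DNA polymerase alpha, which starts new DNA strands. Ube2c had log2 ratios of -1.01, -0.75 and -0.77 in WTA and -0.39, -0.73 and -0.96 in WTD. It had -2.25, -2.34 and -1.52 in D7E and -2.34, -1.68 and -1.67 in D7F. All 4 lines lay below IM2 (0.03 ± 0.23, SD, n = 3), and the mutant cultures lay below the wild-type cultures without overlap. Ube2c fell by 1.20 (SE 0.17, adjusted p = 0.00941), which is 2.29-fold, and its pairings were nearly alike, from -1.34 to -1.05. Each dye orientation on its own gave a difference of the same sign that did not pass, -1.38 on the Cy5 arrays (adjusted p = 0.215) and -1.01 on the Cy3 arrays (adjusted p = 0.209).

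Pola1 had -1.01, -0.70 and -0.86 in WTA and -0.51, -0.42 and -0.21 in WTD, against -2.08 and -1.64 in the 2 measured cultures of D7E. D7F had -0.86, -1.52 and -1.25, so that D7F culture 1 overlapped with WTA. Pola1 fell by 0.92 (SE 0.14, adjusted p = 0.0212), and its D7E culture 2 had no value and was left out of the fit. The difference was smaller without line D7E (-0.59, adjusted p = 0.336). Over the cultures, the profile closest to that of Ube2c among all probes measured in at least 10 cultures was that of Pola1 (mean absolute difference 0.33, r = 0.701), and the profile closest to Pola1 was that of the mitotic cyclin gene Ccnb2 (0.23, r = 0.79).

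Other genes of the cell cycle list lay on the same side. Of its 53 measured genes, 22 (41.5%) were lower and 3 (5.66%) higher in all 4 pairings, against 12.6% and 14.6% of all 8107 genes. Ube2c and Pola1 passed the test, 15 genes were lower with an unadjusted p under 0.05 and 0 were higher. Over all 8107 genes, 280 were lower and 267 higher at that unadjusted p. The median difference was -0.16, against 0.00 over all genes. Ccna2, the cyclin of S phase and G2, had a difference of -1.13 (adjusted p = 0.146) and Ccnb2 one of -0.77 (adjusted p = 0.188), neither of which passed. Mcm3, a subunit of the replicative helicase, had -0.91 (adjusted p = 0.414) and Prim1, a subunit of primase, had -0.96 (adjusted p = 0.585). In single cultures the median of the 34 cell cycle genes measured in all 12 cultures, relative to the median of all such genes, lay from -0.43 to -0.18 in the wild-type lines and from -0.50 to -0.32 in the mutant lines, and these ranges overlapped.

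Probes of related genes lie near each other on part I, so the cell cycle counts were also taken by place. Of the probes that passed, the window of rows 25 to 48 holds Snap25, Cox8b, Pola1 and Xrcc5, the last of them higher in the mean. It also holds Prim1. In this window 57 of 216 probes of all kinds (26.4%) were lower in all 4 pairings and 16 (7.41%) higher. This window holds 13 of the cell cycle genes, of which 5 were lower. Without it 17 of 40 cell cycle genes (42.5%) were lower and 3 higher, with a median of -0.20. On part I as a whole 16 of 46 (34.8%) were lower, against 14.6% of all part I probes, and on part II 6 of 7 (85.7%) were lower, against 10.5% of all part II probes.

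Xlr and 3830403N18Rik also differed between both wild-type lines, with WTD above WTA. Xlr is an X-linked gene of a family of nuclear proteins first described in lymphocytes, and a probe may not tell the members of this family apart. Its log2 ratio was -0.11, -0.11 and -0.34 in WTA but 1.74, 1.46 and 1.42 in WTD. D7E had -0.59, -0.90 and -0.99, and D7F had -1.32, -0.53 and -1.36. The mutant cultures lay below the wild-type cultures without overlap, but D7F culture 2 and WTA culture 3 were only a short distance apart. Xlr fell by 1.62 (SE 0.19, adjusted p = 0.00430), which is 3.08-fold. The difference was -0.64 between D7E and WTA and -2.61 between D7F and WTD, and the difference between these 2 pairs passed (1.97, SE 0.38, adjusted p = 0.0211). Without line WTD the Xlr difference was -0.76 (adjusted p = 0.247). A second Xlr probe had a difference of -0.17 (adjusted p = 0.928) with no common direction, and another was measured in too few cultures to be tested.

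3830403N18Rik had the largest difference of the 14 genes. The wild-type cultures had -1.31, -1.07 and -0.39 (WTA) and 2.08, 1.83 and 3.15 (WTD), and the mutant cultures -1.58, -1.69 and -0.95 (D7E) and -2.58, -2.88 and -1.64 (D7F). WTD stood above IM2 (0.17 ± 0.14, SD, n = 3), while the other 3 transfected lines stood below it, and WTA and D7E overlapped. It fell by 2.60 (SE 0.27, adjusted p = 0.000759), with -0.48 in the high pair and -4.72 in the low pair (difference between the pairs 4.24, adjusted p = 0.000831). Without line WTD the value was -0.96 (adjusted p = 0.199). The closest profile to it was that of Xlr (r = 0.902 over 12 cultures, mean absolute difference 0.86).

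On the rising side, Gpx7 had the largest difference. It encodes a glutathione peroxidase family enzyme of the endoplasmic reticulum that takes part in oxidative protein folding. Its log2 ratio was -0.93, -0.66 and -0.59 in WTA and -2.74, -3.92 and -3.47 in WTD, and it was -0.17, -0.24 and -0.33 in D7E and -0.44, -0.21 and -0.41 in D7F. The wild-type cultures lay below the mutant cultures without overlap, and WTD stood far below WTA. Gpx7 was 1.75 higher in the mutant lines (SE 0.16, adjusted p = 0.000413), which is 3.37-fold. Against IM2 the wild-type mean was -2.05 and the mutant mean -0.29 (adjusted p = 0.352 for the latter). The high pair differed by 0.48 and the low pair by 3.02, and these differed from each other by -2.55 (SE 0.32, adjusted p = 0.000831). Without line WTD the difference was 0.43 (adjusted p = 0.183).

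Msln and Mmp23 differed in every pairing of lines, without the low WTD values seen for Gpx7. Msln encodes mesothelin, a glycoprotein anchored in the outer cell membrane. WTA cultures had -0.55, -0.71 and -0.48, WTD cultures -0.67, -0.44 and -0.55, D7E cultures -0.24, -0.09 and -0.02 and D7F cultures 0.36, 0.43 and 0.36. Both wild-type lines were at the same place, and D7F lay above D7E. Msln was 0.70 higher in the mutant lines (SE 0.07, adjusted p = 0.00156), with pairings from 0.44 to 0.96. Without line D7F the difference was 0.45 (adjusted p = 0.226).

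Mmp23 encodes a matrix metalloproteinase, an enzyme that cleaves proteins outside the cell. Its log2 ratio was -0.80, -0.49 and -0.61 in WTA and -0.67, -0.60 and -0.68 in WTD, against 0.09, 0.26 and 0.11 in D7E and -0.19, 0.03 and -0.25 in D7F. The genotypes did not overlap, and IM2 (-0.03 ± 0.07, SD, n = 3) lay within the mutant range. Mmp23 was 0.65 higher in the mutant lines (SE 0.08, adjusted p = 0.00459), with pairings from 0.49 to 0.80. It passed when lines were random blocks (adjusted p = 0.0350), a fit that took the cultures of a line as nearly independent. Without line D7E the Mmp23 difference was 0.50 (adjusted p = 0.147).

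Dpep1, Mapk12 and Ramp1 were low in WTA, and WTD lay close to the mutant lines. Dpep1, a dipeptidase of the cell surface, had line means of -1.83 ± 0.56 (SD, n = 3) for WTA, -0.29 ± 0.16 for WTD, -0.17 ± 0.16 for D7E and 0.11 ± 0.09 for D7F. The genotypes differed by 1.03 (SE 0.15, adjusted p = 0.0190), and by 0.26 without line WTA (adjusted p = 0.685). Mapk12, a p38 kinase that is abundant in skeletal muscle, had -0.78 ± 0.24 (SD, n = 3), 0.38 ± 0.11, 0.55 ± 0.08 and 0.41 ± 0.18 in the same order. It differed by 0.68 (SE 0.10, adjusted p = 0.0193), and by 0.10 without line WTA (adjusted p = 1). Ramp1, which joins the receptor of the peptide CGRP, had -0.99 ± 0.25 (SD, n = 3), -0.27 ± 0.13, -0.15 ± 0.06 and 0.09 ± 0.14. It differed by 0.60 (SE 0.10, adjusted p = 0.0388), and by 0.23 without line WTA (adjusted p = 0.752). For these 3 genes the smallest pairing was 0.12, 0.03 and 0.11, each between D7E or D7F and WTD.

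**Figure D2:**
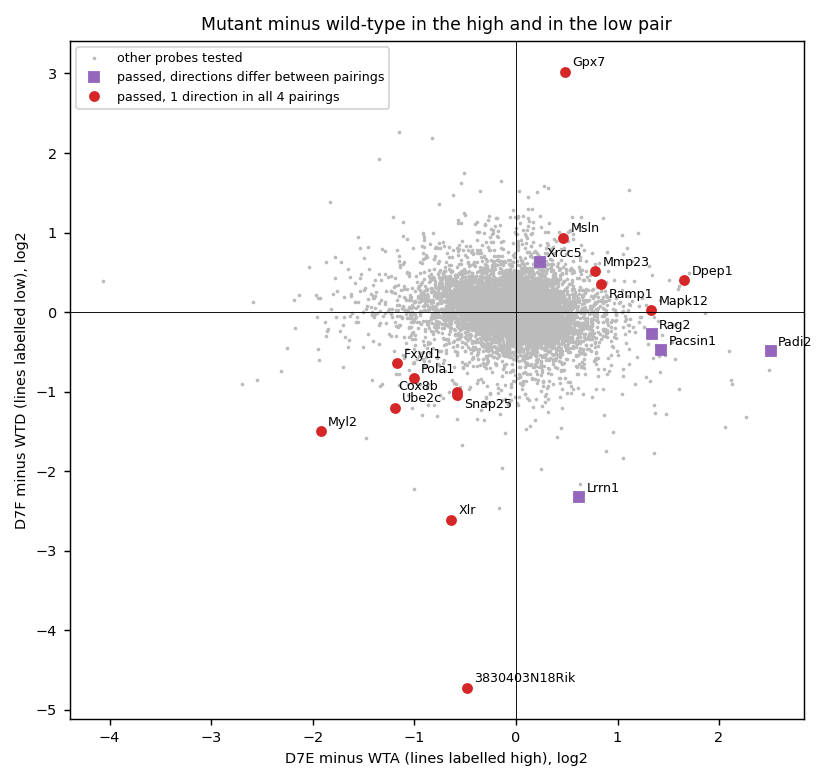
Log2 difference between D7E and WTA, the lines labelled high (x axis), against that between D7F and WTD, the lines labelled low (y axis), for each probe tested. Red circles are the 14 probes that passed with 1 direction in all 4 pairings, purple squares the 5 that passed without it; Gpx7, Xlr and 3830403N18Rik lie far from 0 on the y axis alone.

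The pair labelled high and the pair labelled low had little in common across the arrays. Over the 9703 probes, the difference between D7E and WTA and that between D7F and WTD, which share no cultures, correlated with r = -0.151. The other way to pair the lines, D7E with WTD and D7F with WTA, gave r = -0.005. These are descriptions over probes, which are not independent. The test of the difference between the high and the low pair passed for 230 probes (2.37%), with 1388 at an unadjusted p under 0.05, and the lines labelled high differed from those labelled low for 37 (0.381%). Since each genotype and level is 1 line, line and level cannot be told apart here.

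Among the 19 probes that passed, 5 did not keep 1 direction. Padi2, an enzyme that turns arginine into citrulline in proteins, was 1.01 higher in the mean (adjusted p = 0.0388), with D7E 2.51 above WTA but D7F 0.49 below WTD (value -0.49). Rag2, part of the recombinase of lymphocytes, was 0.53 higher (adjusted p = 0.00884), and Pacsin1, an endocytosis protein of neurons, 0.47 higher (adjusted p = 0.0289). Both were lowest in WTA, with means of -0.98 ± 0.16 (SD, n = 3) and -0.48 ± 0.10. Xrcc5, the larger subunit of the Ku complex of DNA repair, was 0.43 higher (adjusted p = 0.0388), and its lowest line was WTD (-0.84 ± 0.09, SD, n = 3). Lrrn1, a leucine-rich repeat membrane protein, fell by 0.85 (adjusted p = 0.00941), with D7F at -1.79 ± 0.07 (SD, n = 3) and WTA at -0.90 ± 0.09, below D7E at -0.28 ± 0.04. Its second probe had a difference of -0.29 (adjusted p = 0.791).

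Pabpn1 itself was not in the set. The wild-type cultures had log2 ratios of 2.47, 2.22 and 1.89 (WTA) and 1.47, 1.47 and 1.35 (WTD), and the mutant cultures 1.71, 1.45 and 1.67 (D7E) and 1.04, 0.83 and 0.87 (D7F). D7E lay between both wild-type lines, so 3 of the pairings were negative and the pairing of D7E with WTD was 0.18. The difference of -0.55 (SE 0.10) had an adjusted p of 0.0550. The lines thus differed in the amount of Pabpn1 RNA as well as in genotype, with the lowest values in D7F and the highest in WTA, and the part of this in the other differences was not tested.

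Just beyond the threshold lay genes with differences as large as those inside it. Ramp1, the last gene inside, had an adjusted p of 0.0388. The next with 1 direction were Aadat (-0.62, adjusted p = 0.0616), Kat6b (-0.71), Ttl (0.60) and Gmfb (-0.74, each at an adjusted p of 0.0643). Aadat and Kat6b, and Ugt8a and Man1a a little further on, are the near copies of Snap25 described above. They are therefore not separate observations.

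**Figure D3:**
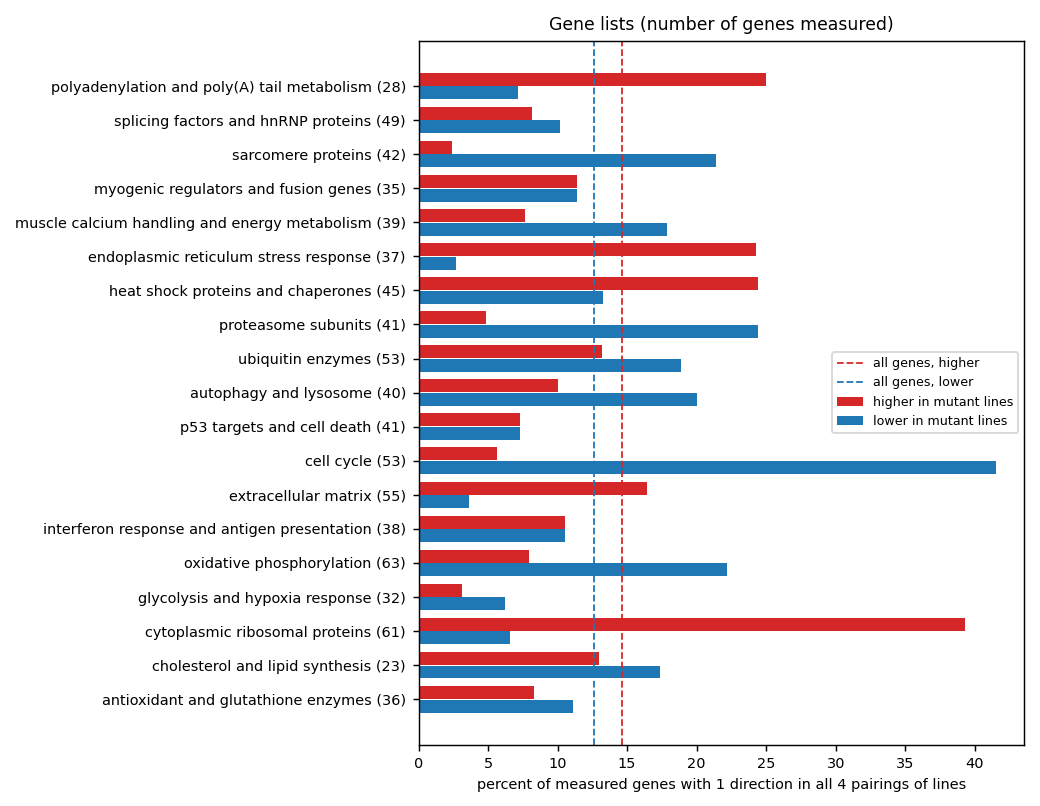
Percent of the measured genes of each list (x axis; number measured in brackets) that were higher (red) or lower (blue) in the mutant lines in all 4 pairings. Dashed lines give the same share over all 8107 genes, 14.6% higher and 12.6% lower; the cell cycle list reaches 41.5% lower and the ribosomal protein list 39.3% higher.

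The other lists were read in the same way, by direction in the 4 pairings against 14.6% higher and 12.6% lower over all genes. Cytoplasmic ribosomal proteins had the largest share of higher genes: 24 of 61 (39.3%) were higher and 4 (6.56%) lower, with a median of 0.11 and 0 that passed the test. On part I 18 of 41 (43.9%) were higher, against 12.3% of all part I probes, and on part II 6 of 20 (30%), against 17.2% of all part II probes. Rpl4 (0.33, adjusted p = 0.734) and Rpl27 (0.22, adjusted p = 0.734), both of the large subunit, were the 2 with an unadjusted p under 0.05. Of 55 extracellular matrix genes 9 were higher and 2 lower, with a median of 0.12. By pairing this median was 0.172 (D7E and WTA), -0.035 (D7E and WTD), 0.369 (D7F and WTA) and 0.093 (D7F and WTD). At an unadjusted p under 0.05, 10 matrix genes were higher and 0 lower, against 267 and 280 of all 8107 genes. These 10 included Fbln2, a basement membrane protein (0.55, adjusted p = 0.604), and Adamts5, a protease that cleaves aggrecan (0.27, adjusted p = 0.734). The median of the 47 matrix genes measured in all 12 cultures, relative to all genes, lay from -1.10 to -0.49 in the wild-type and from -0.79 to -0.49 in the mutant cultures. WTA culture 1, whose arrays had the most values at the limit among the transfected cultures, was the lowest, and its part in the list was not tested.

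**Figure D4:**
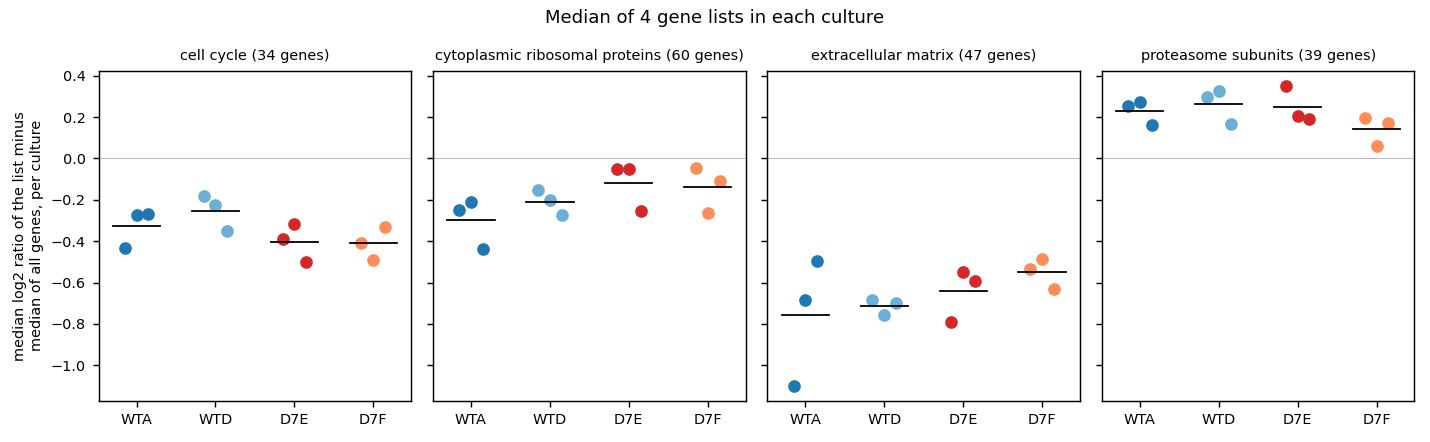
Median log2 ratio of 4 gene lists in each culture, relative to the median of all genes measured in the 12 cultures (y axis), by line (x axis). Points are cultures and bars line means; the wild-type and mutant cultures overlap in all 4 lists, and for the cell cycle genes they run from -0.43 to -0.18 and from -0.50 to -0.32.

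Among muscle genes, 9 of 42 sarcomere proteins (21.4%) were lower and 1 higher, and Myl2 alone passed, while the median was 0.02 and so on the other side of 0. With the arrays centred and scaled 8 were lower and 6 higher. Ttn, the giant protein that spans the sarcomere, had a difference of 0.35 (adjusted p = 0.734). In the list for calcium handling and energy metabolism of muscle, 7 of 39 genes were lower and 3 higher. Cox8b, the near copy of Snap25, alone passed. Without the row window of Snap25 and Cox8b, 5 of 37 (13.5%) were lower, against 12.1% of all probes, and 3 (8.11%) higher, against 15%. Myogenic regulators and fusion genes had 4 lower and 4 higher of 35, with Dag1, the laminin receptor dystroglycan, at -0.31 (adjusted p = 0.223) and its cultures not overlapping.

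Of 41 proteasome subunits 10 (24.4%) were lower and 2 higher, with a median of -0.03. All 10 lay on part I, where 31 were measured (32.3%, against 14.6% of all part I probes). On part II 0 of 10 were lower and 1 higher, against 10.5% and 17.2% of all part II probes. Psmb2, a subunit of the proteolytic core, had -1.70 (SE 0.48, adjusted p = 0.390) with an SD of up to 1.33 within a line. Of 63 oxidative phosphorylation genes 14 (22.2%) were lower and 5 higher, among them Sdhc of complex II (-0.36, adjusted p = 0.434). Ubiquitin enzymes had 10 lower and 7 higher of 53, with Ube2c passing. Of 40 autophagy and lysosome genes 8 were lower and 4 higher, with the lysosomal enzymes Ctsf (-1.04, adjusted p = 0.727) and Hexa (-0.51, adjusted p = 0.500). Ctsf had an SD of 1.51 within D7F, whose cultures had 0.06, -2.56 and 0.05. Hexa lies in the row window of Snap25 and Cox8b. Without that window 6 of 38 (15.8%) were lower, against 12.1% of all probes, and 4 (10.5%) higher, against 15%.

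For polyadenylation and poly(A) tail metabolism, the pathway of Pabpn1, 7 of 28 genes were higher and 2 lower, with a median of 0.04 and 0 that passed. Cstf2, a subunit of the cleavage stimulation factor, had 0.51 (adjusted p = 0.734). Splicing factors and hnRNP proteins had 4 higher and 5 lower of 49. The heat shock list had 11 higher and 6 lower of 45, with the co-chaperone Dnaja4 at -0.71 (adjusted p = 0.579). Of 37 genes of the endoplasmic reticulum stress response 9 were higher and 1 lower, but 4 and 3 with the arrays centred and scaled. The antioxidant list had 3 higher and 4 lower of 36, with Gpx7 passing. In the cholesterol list 3 of 23 were higher and 4 lower, with Idi1 of the isoprenoid pathway at 0.52 (adjusted p = 0.734). The list of p53 targets and cell death had 3 of 41 each way, with the BH3 protein Bid at -0.41 (adjusted p = 0.734), the interferon list 4 of 38 each way and the glycolysis list 1 higher and 2 lower of 32.

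Markers of cell types gave no gene that passed. Of 14 defining skeletal muscle markers 13 were measured, 1 higher and 3 lower in all 4 pairings. The counts higher and lower were 1 and 1 of 8 for fibroblasts, 0 and 0 of 4 for adipocytes, 1 and 1 of 4 for endothelial cells (Tek, the angiopoietin receptor, had -0.82 at an adjusted p of 0.584), 0 and 1 of 4 for neural and Schwann cells and 1 and 0 of 6 for smooth muscle. Of the bone and cartilage markers 1 was measured and of the leukocyte markers 0.

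**Figure D5:**
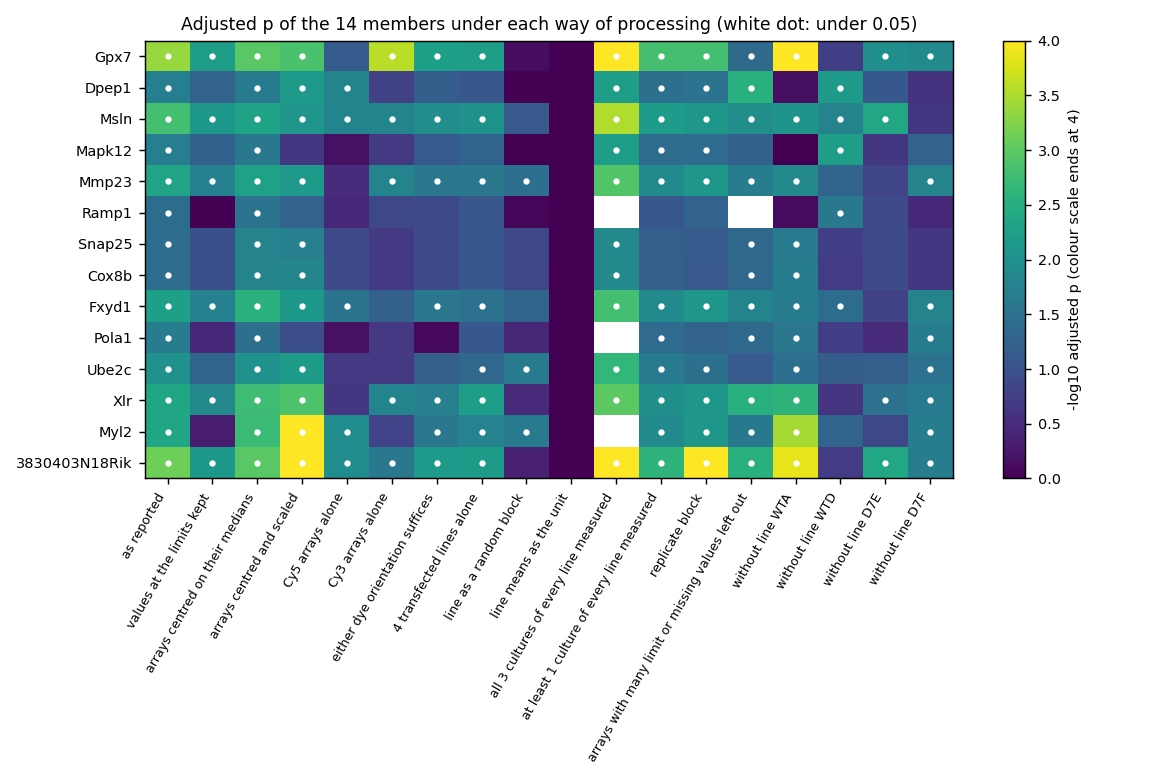
Adjusted p of the 14 genes (rows) under each way of processing (columns), as -log10 on a colour scale that ends at 4; a white dot marks an adjusted p under 0.05 and a white cell a gene not tested there. With line means as the unit no gene has a dot, while Msln, Mmp23, Fxyd1, Gpx7, Xlr and 3830403N18Rik have one in most columns.

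How often each gene passed differed. Over up to 32 other settings, Msln and 3830403N18Rik passed in 29, and Gpx7, Mmp23, Fxyd1 and Xlr in 28. Ube2c passed in 24 of 32 and Myl2 in 24 of the 29 in which it could be tested. Dpep1 passed in 19, Mapk12 in 15, Pola1 in 14 of 29, Snap25 and Cox8b in 11 each and Ramp1 in 5 of 28. When any 1 of the 15 cultures was left out, Gpx7, Msln, Mmp23, Fxyd1, Ube2c, Xlr and 3830403N18Rik passed each time, as did Myl2 in the 13 of these fits that tested it. With a whole line left out, each of the 14 genes lost its call for at least 1 line. Without line D7E, Myl2 had -1.40 (adjusted p = 0.136), Fxyd1 -0.67 (adjusted p = 0.169) and Ube2c -1.13 (adjusted p = 0.0609). Without line WTD, Ube2c had -1.12 (adjusted p = 0.0653), Myl2 -1.61 (adjusted p = 0.0512) and Mmp23 0.64 (adjusted p = 0.051).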

How the data were processed

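Total RNA of 15 cultures of 5 lines was hybridised on 60 two-colour arrays against an IM2 reference, per the labels. The deposited values, as the authors made them, are log ratios of 2 channels and were taken to be log10, because they stop exactly at 2 and -2, a ratio of 100 in that base but 4 in base 2. For their base, scanning, background correction and normalisation nothing is stated (not given in the sources used here). They were multiplied by 3.3219 to give log2. Sizes and folds hold only in that base. All ratios were read as culture over reference, and values at the limits were treated as not measured. Where array titles and channel sources disagreed on the dye (WTA culture 3, part I), the channel sources were used, and 1 description calling D7F culture 1 high was set aside for its title.

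Rows with identical values were collapsed, and probes were named through the platform annotation and the RefSeq gene table of GRCm38.p6. A culture's value is the mean of both dye orientations, both required. A probe had to be measured in 2 or more cultures of each line, which left 4650 probes of part I and 5053 of part II, for 8107 genes. Each part was fitted with limma 3.58.1 in R 4.3.3 (lmFit, eBayes) with all 5 lines, the contrast being the mean of D7E and D7F minus the mean of WTA and WTD. Benjamini-Hochberg adjustment ran over both parts, with a threshold of 0.05. The fit was tested on simulated data in which both lines of a genotype had the same mean. That test therefore does not cover differences between lines of a genotype.

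The members, the gene lists and the rules were chosen with earlier results of these data known. Named were probes that passed, kept 1 direction in the 4 pairings, were measured in all 12 cultures and did not overlap (7 genes), up to 3 passing genes of each list, and up to 2 of the largest list genes that did not pass, kept to an unadjusted p under 0.05. Dpep1, Mapk12, Ramp1, Snap25 and 3830403N18Rik, the 5 genes that passed without 1 direction, the second probes, the near copies, the genes beyond the threshold and the row window were named after their values were seen. The alternatives were the limits kept, centring, scaling, each dye alone, other filters, the replicate block, the line as a block or unit, and each culture or transfected line left out, the last chosen after seeing the data.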

Additional observations from a re-analysis of the deposited data

Results flagged for a closer look

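For 8 of the named genes the mutant minus wild-type difference itself differed between the lines labelled high (D7E and WTA) and those labelled low (D7F and WTD), by a test of that difference in limma with Benjamini-Hochberg adjustment over 9703 probes. The values are the high pair's log2 difference minus the low pair's. They were -2.55 for Gpx7 (adjusted p = 0.000831), 2.99 for Padi2 (adjusted p = 0.000718), 1.30 for Mapk12 (adjusted p = 0.00644) and 1.62 for Rag2 (adjusted p = 8.69e-05). Pacsin1 had 1.91 and Lrrn1 2.95 (adjusted p = 3.37e-05 each), Xlr 1.97 (adjusted p = 0.0211) and 3830403N18Rik 4.24 (adjusted p = 0.000831). In Gpx7, Xlr and 3830403N18Rik the low pair carried most of the difference, through WTD, and in Mapk12 the high pair did, through WTA. Each line is a single line, so level and line cannot be told apart. The lines have 3 cultures each, too few to look for single cultures far from the others.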

How the results depend on the processing

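Compared with 19 probes that passed between genotypes, 14 of them with 1 direction, and 230 for the difference between the high and the low pair, the counts were 10, 6 and 79 with the limits kept, 5, 5 and 37 on the Cy5 arrays, 5, 5 and 49 on the Cy3 arrays, 9, 7 and 66 with either orientation enough, and 11, 8 and 134 without IM2 in the fit. With all 3 cultures of every line required they were 34, 24 and 436 of 5527 probes tested, of which 16, 11 and 192 were among those reported. Centring and scaling gave 22 with 1 direction, 11 of them among the 14. The line as a random block gave 3 and 3, and line means 0 and 0. At least 1 culture a line gave 116, and leaving out poor arrays 107, for the difference between pairs. Without line WTA 46 and 46 passed (13 and 11 shared with those reported), without WTD 26 with 1 direction (5 shared), without D7E 10, and without D7F 24 with 1 direction (8 shared); with 1 line left out, direction rests on 2 pairings. Leaving out 1 culture gave 10 (without WTD culture 1) to 29 (without IM2 culture 1), 8 to 22 with 1 direction, and 91 (without D7F culture 2) to 365 (without IM2 culture 2) for the difference between pairs. Without line WTA, Rag2 had -0.065 and Pacsin1 -0.28. Leaving out single cultures ended the calls of Dpep1 (WTD 1 and 2, D7E 2 and D7F 2, up to adjusted p = 0.0683), Mapk12 (WTD 1 and 3, D7E 2, D7F 2 and 3, up to 0.0708), Pola1 (each WTD culture and D7F 3, up to 0.0708), Ramp1 (each transfected culture but WTA 2 and 3, up to 0.129), and Snap25 and Cox8b (each transfected culture but WTA 3, D7E 1 and D7F 1, up to 0.122). Of the genes without 1 direction, Padi2 (up to 0.126), Pacsin1 (up to 0.101) and Xrcc5 (up to 0.139) lost theirs most without WTD culture 2. Pabpn1 passed in 7 settings, among them without WTA culture 3 (-0.63, adjusted p = 0.00692). Same-numbered cultures of different lines deviated together with r = -0.114 to 0.28 (median 0.0489), and differently numbered ones with r = -0.31 to 0.269 (median -0.0508). An r over 0.1 occurred in 8 of 18 same-numbered and 6 of 36 differently numbered pairs. The labels do not state that the numbers pair cultures, so the main fit has no replicate block. With the replicate block 13 probes passed, 11 with 1 direction and 136 for the difference between pairs. The causes were not tested.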
